A study of Mus musculus with 2 samples.

Results

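Osteopontin (Spp1) and 7 genes for its receptors, 8 genes of the 27999 listed in each library, were followed across the cell classes of mouse lungs that carried experimental metastases. The members were Spp1 itself, the hyaluronan receptor Cd44, and the integrin subunits Itgav, Itgb1, Itgb3, Itgb5, Itga4 and Itga9. All 8 were present in both count matrices. Whole lungs were taken from female FVB/NJ mice that had received 500000 Met-1 cells by tail vein at 10 weeks of age. Met-1 is a mouse mammary carcinoma line derived from a tumor driven by the polyomavirus middle T antigen (PyMT) transgene, so the metastases grew from cells seeded through the blood and not from a primary tumor. A mouse taken at week 1 gave the low-burden library, and a second mouse taken at week 3 gave that of high burden, so each group is 1 animal. No lung of an uninjected mouse was part of the comparison. Week, burden, mouse and depth differ together between the libraries and cannot be told apart, and no value has a replicate check.

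Osteopontin is a secreted, phosphorylated glycoprotein of the SIBLING family that is found in bone matrix and is also made by macrophages and many carcinomas. It binds integrins that contain the αv subunit through an arginine-glycine-aspartate (RGD) motif. A second motif, which lies directly after the RGD and is exposed when proteases such as thrombin cut the protein, binds α4 and α9 integrins paired with β1. Cd44, best known as the receptor for hyaluronan, has been described as a further receptor. Integrins work as pairs of 1 α and 1 β subunit, so that an α subunit without its partner does not give a receptor at the surface.

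Both integrin-binding sites lie in a short coding stretch of Spp1, which is shown because the receptor genes divide according to which of the sites they bind. In the GENCODE M21 annotation (GRCm38), Spp1 lies on the plus strand at chr5:104435118-104441050. Its transcript Spp1-202 has 8 exons, and the stretch below is coding sequence of exon 7 at chr5:104439451-104439540, read 5′ to 3′. The capitals mark codons 145 to 154, of which the first 3 encode RGD and the next 7 encode the α4 and α9 binding motif.
Spp1: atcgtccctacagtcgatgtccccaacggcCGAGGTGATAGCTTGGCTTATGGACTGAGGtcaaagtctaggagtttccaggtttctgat

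The RGD motif is shared with other matrix ligands of the same integrins, whose genes were also measured here. The coding bases around this motif are given for 4 of them, with the RGD codons in capitals. Fibronectin (Fn1) holds 2 such motifs, of which the first is printed.
Fn1: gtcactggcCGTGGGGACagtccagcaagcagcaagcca
Vtn: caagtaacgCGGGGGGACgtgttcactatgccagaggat
Mfge8: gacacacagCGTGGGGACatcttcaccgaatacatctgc
Edil3: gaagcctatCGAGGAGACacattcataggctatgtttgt
The RGD codons of Fn1 lie in exon 30 of the minus strand (chr1:71606746-71606754), those of vitronectin (Vtn) in exon 3 of the plus strand (chr11:78499706-78499714), those of Mfge8 in exon 3 of the minus strand (chr7:79145308-79145316) and those of Edil3 in exon 4 of the plus strand (chr13:89042491-89042499). The 5 ligands encode the same 3 residues, with the same codons in Fn1 and Mfge8, and only Spp1 carries the α4 and α9 motif directly after them in the bases shown.

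UMIs (unique molecular identifiers, which count captured mRNA molecules) summed to 14041471 over 2668 cells at low burden and to 52723173 over 3121 cells at high burden. After the study's limits on cells, 2473 and 3033 cells were kept, and a kept cell had a median of 4073 and 13998 UMIs, respectively. There were 11 cell barcodes that occurred in both libraries. Cells were named by gates on marker genes, so each name stands for cells that resemble the class (alveolar macrophage-like, C1q macrophage-like and so on). Of 21 gated classes, 17 had 10 or more cells in at least 1 library and 9 had 20 or more in both. Carcinoma-like cells numbered 1339 at high burden and 0 at low burden. The carcinoma gate rests on transcription factor and cell cycle genes such as Hmga2, Twist1 and Sox9. The epithelial adhesion gene Epcam, which the gate did not use, was near 0 in these cells (2.07 UMIs per 1000000, abbreviated CPM), as was the leukocyte gene Ptprc (10.7 CPM). Cells that passed gates of different compartments were called mixed (135 cells at low and 62 at high burden), and 238 and 410 cells passed no gate.

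Spp1 was by far most abundant in the carcinoma-like cells of the high-burden lung and, at low burden, in alveolar macrophage-like cells. In carcinoma-like cells it stood at 7071 CPM (229242 UMIs in 1339 cells). These cells held 82.3% of all Spp1 UMIs of the high-burden library, against 63.0% of its UMIs of all genes. At low burden, 431 alveolar macrophage-like cells held 73.9% of the Spp1 UMIs with 11.5% of all UMIs. Their level was 1987 CPM (95% Poisson interval 1917 to 2059), which was 31.5-fold that of the other named low-burden cells (63.0 CPM; log2 ratio 4.98, 4.85 to 5.11). Alveolar macrophages are the resident phagocytes of the airspace, and only 3 cells of the high-burden library passed this gate, so no level is given for them there. Intervals throughout are exact, at 95%, and cover counting error only.

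**Figure D1:**
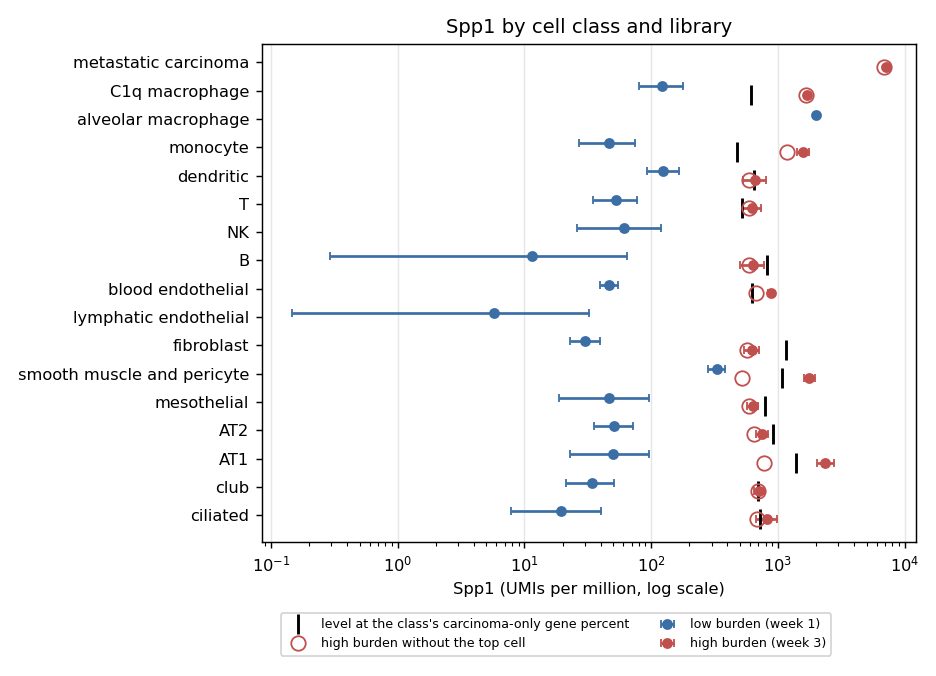
Spp1 in UMIs per 1000000 (log axis) for each cell class in the low-burden (blue) and high-burden (red) library, with 95% Poisson intervals. Black bars give the level that the class's percent of carcinoma-only transcripts would bring, and open circles the high-burden level without the cell that holds most Spp1. Carcinoma-like cells stand highest at 7071, and the C1q macrophage-like cells (1694) stand above their bar (610).

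Among the other low-burden classes, Spp1 ranged from 5.75 CPM in lymphatic endothelial-like cells (1 UMI) to 331 CPM in smooth muscle and pericyte-like cells. The latter value came largely from 1 cell, which held 48% of the 167 UMIs, and without it the level was 173 CPM. C1q macrophage-like cells, the monocyte-derived or interstitial type that carries complement C1q, stood at 123 CPM (80.8 to 178), dendritic-like cells at 124, T-like cells at 53.1, blood endothelial-like cells at 46.7, monocyte-like cells at 46.3 and fibroblast-like cells at 30.3 CPM. C1q macrophage-like and dendritic-like cells had overlapping intervals, as did T-like, endothelial-like and monocyte-like cells. Alveolar macrophage marker transcripts were also found in the other classes of this library, at 0.558% to 6.40% of their level in alveolar macrophage-like cells. At those percentages the Spp1 of alveolar macrophage-like cells would bring 11.1 to 127 CPM to a class.

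Every class of the high-burden library contained Spp1. The 9 classes with 20 or more cells in both libraries had log2 ratios of high over low burden from 3.56 (T-like) to 5.77 (B-like), and the interval lay above 0 in all 9. Genes with at least 50 UMIs over both libraries of a class were compared in the same sums. Of these genes, 14.3% were at least 2-fold higher at high burden in C1q macrophage-like cells, 8.19% in monocyte-like, 10.5% in T-like, 4.3% in B-like, 3.05% in blood endothelial-like, 4.74% in fibroblast-like, 3.09% in AT2-like, 5.11% in club-like and 10.5% in mesothelial-like cells. The B-like cells went from 11.6 CPM (1 UMI) to 630 CPM (83 UMIs), with a UMI of Spp1 in all 21 cells. Fibroblast-like cells went from 30.3 to 621 CPM, AT2-like cells from 51.3 to 753, club-like cells from 33.9 to 713, mesothelial-like cells from 46.8 to 632 and T-like cells from 53.1 to 628 CPM. The levels of these classes in the high-burden library were thus close to each other.

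Transcripts that belong to the carcinoma cells were found in the same classes. A set of 14 genes was taken that stood at 20 CPM or more in carcinoma-like cells and at least 100-fold above the low-burden library, such as Hmga2, Fosl1 and Col11a1, and it was chosen with the values in view. The member genes and the PyMT transcript were left out of this set by name. In the 13 host classes of 10 or more high-burden cells, the summed level of this set was 6.78% to 19.8% of that in carcinoma-like cells. For the Spp1 of carcinoma-like cells the same percentages correspond to 519 CPM in T-like, 643 in dendritic-like, 701 in club-like, 785 in mesothelial-like, 818 in B-like and 1149 CPM in fibroblast-like cells. The observed Spp1 was 628, 658, 713, 632, 630 and 621 CPM in these classes, so that it lay at 0.540 to 1.21 times the level given by the carcinoma transcripts. Of the 14 genes, 7 also serve in the carcinoma gate. The PyMT transcript itself stood at 64.8 CPM in carcinoma-like, 60.0 in C1q macrophage-like, 45.6 in B-like and 82.4 CPM in AT2-like cells, and so did not separate carcinoma from host cells. It otherwise met both limits of the set, with 0 UMIs in each low-burden class of 10 or more cells. The percentages above hold for the 14 genes and not for PyMT.

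C1q macrophage-like cells stood above this level. Their Spp1 went from 123 CPM in 51 low-burden cells to 1694 CPM (1667 to 1722) in 755 high-burden cells, a log2 ratio of 3.79 (3.25 to 4.39). Carcinoma-only genes stood at 8.63% of their carcinoma level in these cells, which corresponds to 610 CPM of Spp1 (572 to 651), and with the 7 genes outside the gate it corresponds to 660 CPM (586 to 742). The observed level was 2.78 times the former value, and the cell with most Spp1 held 2% of the UMIs. Other genes of this class also differed between the libraries. Csf1r went from 954 to 421 CPM and Cd74 from 25399 to 12877 CPM, while Ptprc (132 and 130 CPM) and Cd68 (432 and 427 CPM) were nearly level. Whether the class holds the same kind of macrophage in both libraries, and the part of this in its ratios, was not tested. Monocyte-like cells stood at 1572 CPM in 27 cells, against 480 CPM (279 to 768) by the carcinoma genes. With the 7 genes outside the gate the latter level was 688 CPM (276 to 1417), on 7 UMIs. In this class 1 cell held 27% of the Spp1 UMIs. Without that cell the level was 1188 CPM, which lies within the interval from the 7 genes. The monocyte-like class is not secure at high burden, as described below for Cd44. Blood endothelial-like cells stood at 877 CPM, against 620 CPM (537 to 713), and went to 672 CPM without 1 cell of 162 that held 24% of their Spp1. Single cells also carried 75% of the Spp1 of 10 AT1-like cells (2366 CPM, or 775 without the cell) and 75% of that of 17 smooth muscle and pericyte-like cells (1769 CPM, or 521 without it). The 410 cells that passed no gate stood at 6161 CPM and held 9.76% of the Spp1 UMIs. Carcinoma-only genes were at 29.5% of their carcinoma level in them, and their Spp1 was 2.95 times the 2089 CPM that this corresponds to. Such a level takes Spp1 to keep a fixed proportion to these genes in carcinoma RNA. Among carcinoma-like cells grouped by Spp1, as described below, Spp1 went from 1217 to 22385 CPM and Hmga2 from 206 to 121 CPM. The source of Spp1 above the level was not tested.

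Medians over single cells are less affected by a few cells with much Spp1. In carcinoma-like cells Spp1 ranged from 241 to 121157 CPM per cell with a median of 3692. The median was 983 CPM in high-burden C1q macrophage-like cells, with a highest value of 36463. In the 12 other host classes of that library it lay between 505 and 834 CPM. At low burden the median was 1550 CPM in alveolar macrophage-like cells and 0 in all other classes but the dendritic-like (92.9) and club-like (29.9) cells. When every cell was thinned to 3000 UMIs, Spp1 was detected in 90.5% of low-burden alveolar macrophage-like cells, in 92.5% of high-burden C1q macrophage-like cells and in 76.2% of high-burden B-like cells. Without thinning the corresponding shares were 94.0%, 99.7% and 100%. Since B-like cells, at 1 UMI in 26 cells of the low-burden library, gave such a share at high burden, the detection of Spp1 in a single high-burden cell was not read as expression.

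**Figure D2:**
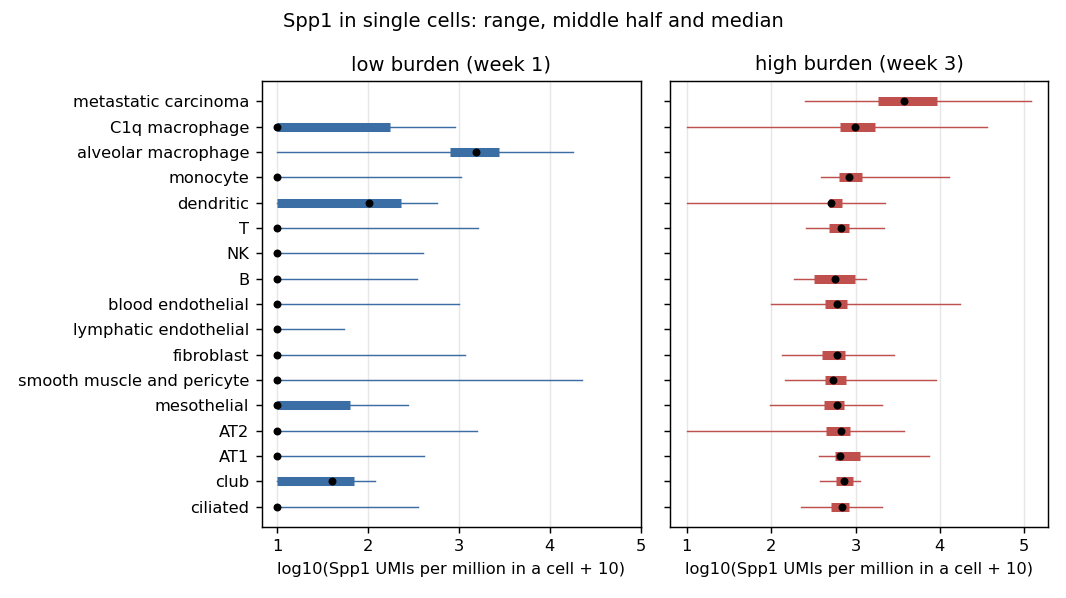
Spp1 in single cells as log10(UMIs per 1000000 + 10), low burden left and high burden right. Thin lines give the range, thick bars the middle 50% of cells and black dots the median; at low burden most medians sit at 0 UMIs, while at high burden every class is displaced and the carcinoma-like cells (median 3692) stand highest.

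Carcinoma-like cells differed widely among themselves in Spp1, and 133 of 1339 cells held 44.6% of its UMIs. The cells were ordered by Spp1 CPM and divided into 4 groups of 334 or 335, with Spp1 levels of 1217, 2628, 5978 and 22385 CPM. Their median depth was 28389, 24443, 19256 and 18122 UMIs. Receptor genes were then compared between the highest and lowest group with Spp1 itself left out of the totals. Itgb5, which pairs with αv, was 2.19-fold higher in the highest group (log2 ratio 1.13, 1.00 to 1.26), going from 86.2 to 112, 142 and 188 CPM over the 4 groups. Itgb3, the other classical αv partner, was rare but followed the same order, with 9 UMIs in the lowest and 48 in the highest group (log2 ratio 2.95, 1.90 to 4.16). Itgav was 1.39-fold higher (0.48, 0.29 to 0.67) and Itgb1 1.22-fold higher (0.29, 0.18 to 0.39). Cd44 went the other way, at 229 CPM in the lowest and 178 CPM in the highest group (-0.37, -0.47 to -0.26). The share of all genes past 2-fold between these groups is not given, so how unusual the receptor ratios are cannot be judged.

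The same groups of carcinoma-like cells differed in other genes as well, whose levels are given over totals that include Spp1 unless stated. Mki67, a marker of cycling cells, was at 74.8 CPM in the lowest and 21.9 CPM in the highest Spp1 group, and the ribosomal protein gene Rps2 at 7867 and 3675 CPM. The matrix gene Mgp (matrix Gla protein, an inhibitor of calcification) went from 1796 to 20207 CPM, Fn1 from 214 to 852 CPM, Cp (ceruloplasmin) from 93.1 to 712 CPM and Lcn2 (lipocalin-2) from 380 to 3522 CPM. Among genes with 500 or more UMIs in the highest and lowest groups together, the largest ratios after 1500015O10Rik, here with Spp1 left out of the totals, were those of the iron carrier transferrin (Trf, 89.0 to 1885 CPM) and Ccdc80 (6.22 to 76.3 CPM). The smallest included the mitotic genes Prc1 (114 to 26.0 CPM) and Anln (89.3 to 22.3 CPM). PYMT (64.6 and 65.5 CPM), Ptprc (10.4 and 11.9 CPM) and the macrophage gene C1qa (117 and 112 CPM) were nearly level. These groups were cut from 1 continuous measure and are ranges of it, not cell types.

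Cells of the high-burden C1q macrophage-like class were divided in the same way, into 4 groups of 188 or 189 with 461, 790, 1246 and 4062 CPM of Spp1. The carcinoma-only genes stood at 9.41%, 8.0%, 8.60% and 8.61% of their carcinoma level in these groups. Cxcl9, the interferon-induced chemokine that recruits T cells, went from 409 CPM (381 to 439) in the lowest to 47.4 CPM (38.8 to 57.3) in the highest Spp1 group, and the antigen presentation gene H2-Aa from 5511 to 2887 CPM. The lipid-sensing receptor Trem2, which is also a gate gene, went from 264 to 463 CPM, podoplanin (Pdpn) from 31.6 to 118 CPM and the inhibitory Fc receptor Fcgr2b from 156 to 344 CPM. Of the receptor genes, Itgb5 went from 138 CPM (122 to 156) to 205 CPM (187 to 225), while Cd44 (146 and 136 CPM), Itgav (28.0 and 28.8 CPM) and Itgb1 (123 and 122 CPM) had overlapping intervals. In 115 cells with a UMI of Arg1 (arginase 1), Spp1 stood at 2178 CPM (2101 to 2256) and Cd44 at 185 CPM (163 to 209), against 1599 CPM and 110 CPM in 640 cells without one. Itgb5 was lower in the cells with Arg1, at 117 against 190 CPM. Over the 4 groups ordered by Spp1, Arg1 itself stood at 118 CPM (104 to 135) in the lowest and at 31.9, 73.5 and 90.4 CPM in the following groups, so its level did not follow that of Spp1. The carcinoma-only genes were at 10.1% of their carcinoma level in the cells with a UMI of Arg1 and at 8.35% in those without one. Their part in the Spp1 difference between these cells was not tested.

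**Figure D3:**
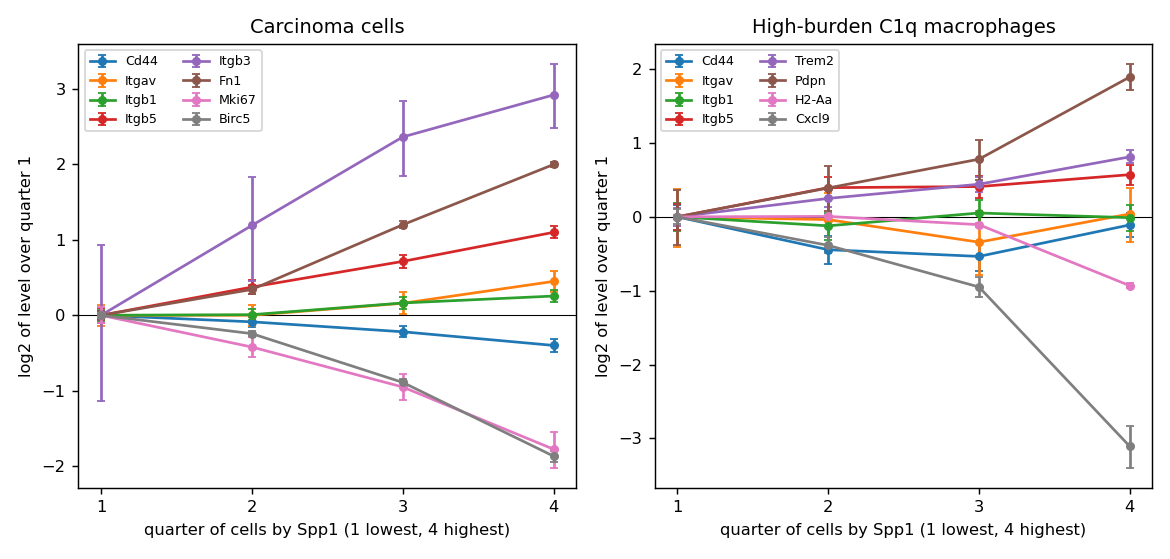
Levels of named genes in 4 equal groups of cells ordered by Spp1, as log2 of the level over that of the lowest group, with 95% Poisson intervals, for carcinoma-like cells (left) and high-burden C1q macrophage-like cells (right). Itgb5 is higher in the highest than in the lowest group of both classes, while Mki67 is lower in carcinoma-like cells (74.8 to 21.9 CPM) and Cxcl9 in macrophage-like cells (409 to 47.4 CPM).

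Among the receptors, Cd44 at low burden was mostly a gene of alveolar macrophage-like cells. Alveolar macrophage-like cells carried it at 2112 CPM (2040 to 2187), which was 23.2-fold the level of the other named cells (91.2 CPM; log2 ratio 4.53, 4.42 to 4.64), and they held 68.7% of its UMIs. At 3000 UMIs per cell it was seen in 247 of 252 of these cells (98.0%). Spp1 and Cd44 were the 2 of 8 members that stood at least 2-fold higher in alveolar macrophage-like cells, where 10.7% of all genes did. Itgb3 (1 UMI) and Itga9 (2 UMIs) were at least 2-fold lower, as were 32.1% of all genes. The next levels of Cd44 at low burden were 417 CPM in monocyte-like, 226 in dendritic-like and 195 CPM in C1q macrophage-like cells, of which the last pair had overlapping intervals. It was lowest in lymphatic endothelial-like (28.8 CPM), blood endothelial-like (33.2 CPM) and AT1-like cells (39.2 CPM).

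At high burden Cd44 was found at 207 CPM in carcinoma-like cells (202 to 212), which held 73.8% of its UMIs. T-like cells (208 CPM), dendritic-like cells (212 CPM), monocyte-like cells (244 CPM) and smooth muscle and pericyte-like cells (172 CPM) had levels whose intervals overlapped that of the carcinoma-like cells. Between the libraries, Cd44 was lower at high burden in C1q macrophage-like cells (195 to 122 CPM; log2 ratio -0.68, -1.12 to -0.20) and in monocyte-like cells (417 to 244 CPM; -0.77, -1.27 to -0.30). The monocyte-like class is not secure at high burden. The gate took 99 low-burden and 27 high-burden cells, while Leiden clusters gave this name to 117 and 3 cells. In the gated cells the leukocyte gene Ptprc went from 651 to 194 CPM and the macrophage growth factor receptor gene Csf1r from 496 to 149 CPM, and the part of this in the ratios of the class was not tested. Cd44 was higher in T-like cells (129 to 208 CPM; 0.69, 0.13 to 1.25), in fibroblast-like cells (79.1 to 115 CPM; 0.53, 0.01 to 1.03) and in mesothelial-like cells (40.1 to 121 CPM; 1.59, 0.39 to 3.08), the latter on 6 and 68 UMIs, of which 1 high-burden cell held 25% (95.5 CPM without it). At the carcinoma-only percent of each class, carcinoma Cd44 corresponds to 15.2 CPM in T-like cells (7.34%) and 23.0 CPM in mesothelial-like cells (11.1%). In fibroblast-like cells (16.2%) it corresponds to 33.6 CPM (26.5 to 42.0). The differences of high minus low burden were 79.2, 80.6 and 35.5 CPM in these classes, respectively. The part of carcinoma transcripts in these differences was not tested. The mesothelial-like class is not secure either. The gate took 21 low-burden and 30 high-burden cells, while Leiden clusters gave this name to 22 and 105 cells. In the gated cells the median depth went from 5640 to 19224 UMIs, Epcam from 214 to 44.4 CPM and Krt18 from 381 to 556 CPM. The part of this in the ratios of the class was not tested. Summed over all named host cells, Cd44 was at 369 CPM in the low-burden and 113 CPM in the high-burden library, where the alveolar macrophage-like cells that held most of it numbered 431 and 3.

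Itgb1, the shared β subunit, was the most widely detected of the integrin genes. At low burden it was highest in smooth muscle and pericyte-like cells (588 CPM, 523 to 659), followed by blood endothelial-like cells (428 CPM, 406 to 451) and AT1-like cells (347 CPM), and the last pair overlapped. It was lowest in club-like cells (50.1 CPM) and B-like cells (69.4 CPM). At high burden the order was the same at the top, with 464 CPM in smooth muscle and pericyte-like and 388 CPM in blood endothelial-like cells. Carcinoma-like cells stood at 186 CPM. Of 8 classes that passed the filter, only mesothelial-like cells differed by 2-fold, which went from 288 to 128 CPM (log2 ratio -1.17, -1.74 to -0.59), where 7.17% of all genes were at least 2-fold lower. The mesothelial-like class is not secure, as described for Cd44.

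Itgav, the α subunit of the RGD-binding receptors, was sparse in every class. It was highest in mesothelial-like (100 CPM, 15 UMIs) and AT1-like cells (78.4 CPM, 14 UMIs) at low burden, and in mesothelial-like (78.1 CPM), T-like (70.7 CPM, 17 UMIs), smooth muscle and pericyte-like (53.3 CPM, 13 UMIs) and carcinoma-like cells (51.7 CPM, 1677 UMIs) at high burden. Levels below these overlapped for most neighbours. In the 4 classes that passed the filter its log2 ratio lay between -0.36 and 0.23, and every interval held 0. T-like cells, with too few UMIs for the filter, went from 16.4 CPM (8 UMIs) to 70.7 CPM (17 UMIs; 2.11, 0.82 to 3.53).

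Itgb5 marked fibroblast-like cells (242 CPM, 220 to 265), smooth muscle and pericyte-like cells (212 CPM, 174 to 256) and C1q macrophage-like cells (141 CPM, 95.7 to 200) at low burden. At high burden it stood at 222 CPM in smooth muscle and pericyte-like, 178 CPM in C1q macrophage-like, 126 CPM in carcinoma-like and 125 CPM in fibroblast-like cells. The value in fibroblast-like cells was lower at high burden (log2 ratio -0.95, -1.41 to -0.51), just short of 2-fold, while that in C1q macrophage-like cells (0.34, -0.17 to 0.90) and in blood endothelial-like cells (60.8 and 60.2 CPM) had intervals that held 0.

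The α4 and α9 subunits, whose integrins bind the second site of osteopontin, stood at 2.41 and 1.39 CPM in carcinoma-like cells. Itga4 was highest in low-burden monocyte-like cells (204 CPM, 161 to 256), followed by NK-like (121 CPM), B-like (116 CPM), dendritic-like (98.9 CPM) and T-like cells (67.5 CPM), and each overlapped with its neighbour in this order. Monocyte-like cells had 49.7 CPM at high burden (10 UMIs in 27 cells; log2 ratio -2.04, -3.16 to -1.08), in a class where 12.7% of all genes were at least 2-fold lower. Ptprc and Csf1r were lower in the same cells, and Leiden clusters gave the monocyte name to 3 high-burden cells, as described for Cd44. T-like cells also had less (6 UMIs in 26 cells; -1.43, -2.98 to -0.16), on too few UMIs for the filter. Itga9 was highest in lymphatic endothelial-like cells (236 CPM, 169 to 320), with no other class near it, and then in smooth muscle and pericyte-like cells (79.2 CPM, 56.6 to 108). The lymphatic value rests on 41 UMIs in 24 low-burden cells. No Leiden cluster took the lymphatic name, and 23 of these cells fell under the blood endothelial name. Fibroblast-like cells held 25.9% of the Itga9 UMIs at low burden, and C1q macrophage-like cells held 50.1% at high burden, at 21.1 CPM. In fibroblast-like cells it went from 36.1 to 69.3 CPM (log2 ratio 0.94, 0.23 to 1.61), but when cells were classed by Leiden clusters in place of gates the direction turned (31.7 to 22.1 CPM; -0.52).

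Carcinoma-like cells stood apart from the other named cells of their own library in 3 of the 8 members. The largest class among those other cells was the C1q macrophage-like, with 16.5% of the library's UMIs, followed by the blood endothelial-like with 3.52%. C1q macrophage-like cells also held 42.0% of the library's Itga4 and 50.1% of its Itga9 UMIs, so the contrast is mainly one with macrophages. Spp1 was 5.07-fold higher (log2 ratio 2.34, 2.32 to 2.36), where 13.3% of all genes were at least 2-fold higher. Itga4 (2.41 against 20.0 CPM; -3.05, -3.43 to -2.68) and Itga9 (1.39 against 19.7 CPM; -3.83, -4.32 to -3.37) were lower, where 20.8% of all genes were at least 2-fold lower. Cd44 and Itgav were each 1.82-fold higher, and Itgb1 (1.12-fold) and Itgb5 (0.937-fold) were close to level.

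**Figure D4:**
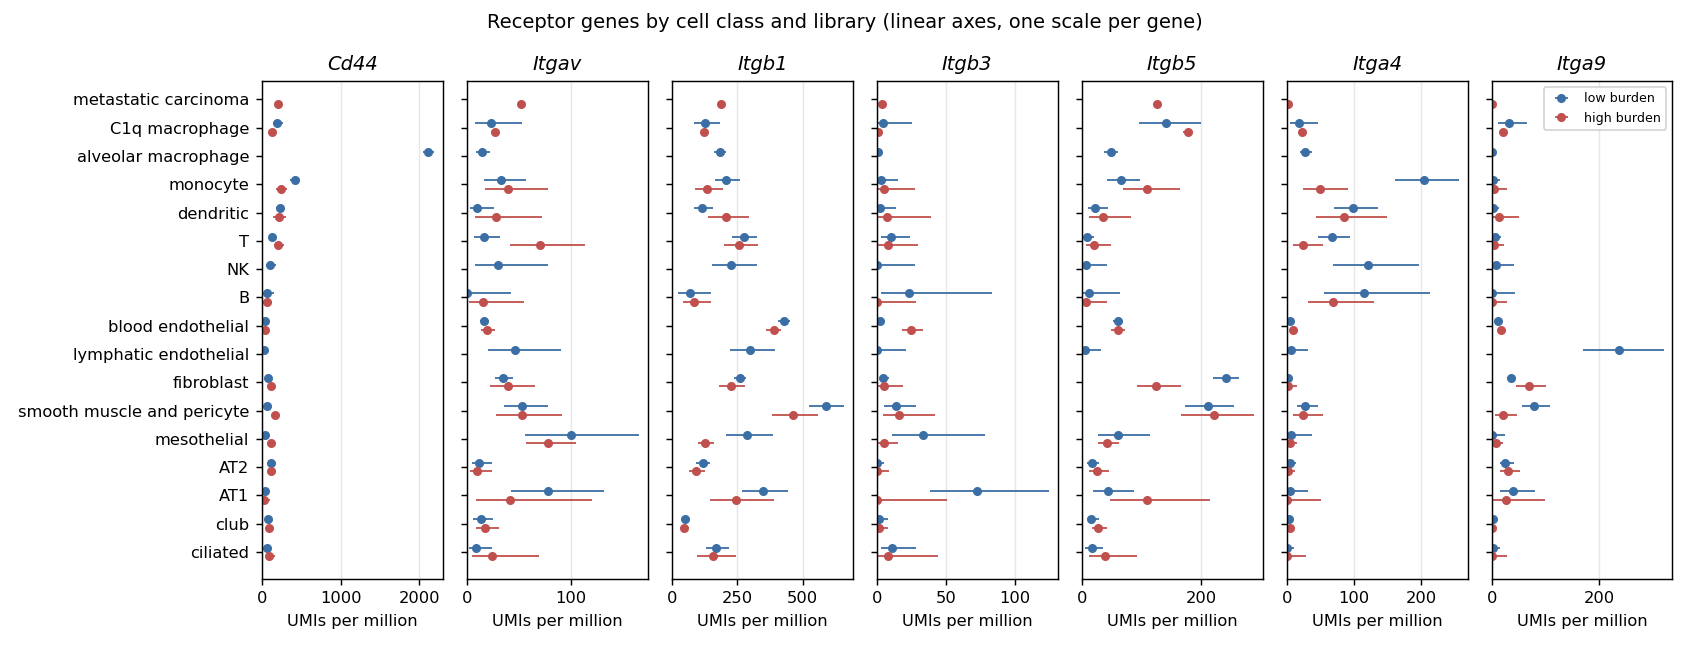
Receptor genes in UMIs per 1000000 by cell class, low burden in blue and high burden in red, with 95% Poisson intervals; axes are linear and differ between genes, so levels are compared within a gene. Cd44 stands out in alveolar macrophage-like cells (2112), Itga4 in low-burden monocyte-like cells (204) and Itga9 in lymphatic endothelial-like cells (236).

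Over the 7 receptor genes and the 9 classes, 29 combinations had 50 or more UMIs, and 25 of them differed by less than 2-fold between the libraries. Most genes of these classes did so too. The share of all genes at least 2-fold higher lay between 3.05% (blood endothelial-like) and 14.3% (C1q macrophage-like). The share at least 2-fold lower lay between 2.56% (club-like) and 12.7% (monocyte-like). The receptor combinations past 2-fold were Itgb3 in blood endothelial-like cells and Cd44 in mesothelial-like cells, which were higher, and Itga4 in monocyte-like and Itgb1 in mesothelial-like cells, which were lower.

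Itgb3 encodes the β subunit of the αvβ3 integrin, known from platelets, osteoclasts and sprouting endothelium, and it was the member with fewest UMIs, 79 at low and 218 at high burden. At low burden it was highest in AT1-like cells (72.8 CPM, 38.8 to 124, 13 UMIs). In blood endothelial-like cells it was found as 7 UMIs in 7 of 509 cells at low burden and as 45 UMIs in 20 of 162 cells at high burden, or 2.19 and 24.9 CPM (log2 ratio 3.50, 2.34 to 4.90). The 3 cells with most Itgb3 held 19 of the 45 UMIs, and 11 cells held a single UMI. With classes taken from Leiden clusters the log2 ratio was 0.69 (3.82 and 6.17 CPM), and 16 of the 20 high-burden cells with Itgb3 fell in a cluster that took the mesothelial name, with 23 of the 162 cells in all.

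The 20 high-burden endothelial-like cells with Itgb3 differed from the other 142 in further genes. The gate gene Cdh5 (VE-cadherin) was present in all 20. Esm1, a gene of endothelial tip cells, stood at 709 CPM in them against 26.8 CPM in the 142 cells without Itgb3, the peptide hormone gene Apln at 818 against 74.6 CPM, the vessel-destabilising ligand Angpt2 at 428 against 20.3 CPM and placental growth factor (Pgf) at 170 against 7.97 CPM. Apln was detected in 19 of the 20 cells, Angpt2 in 13, Esm1 in 12 and Pgf in 8, against 54, 24, 10 and 7 of the 142. Tmem100 was lower, at 156 against 1305 CPM, as were Inmt at 200 against 2225 CPM and Npnt at 20.9 against 344 CPM. Npnt belongs to the fibroblast gate. Col1a1, also of that gate, stood at 107 against 80.4 CPM and was detected in 2 of the 20 and 61 of the 142 cells. The part of fibroblast transcripts in these differences was not tested. Of the platelet genes, Tubb1 had 0 UMIs, Gp9 2 UMIs and Itga2b 1 UMI in the 20 cells, while Pf4 stood at 83.7 against 56.5 CPM. Their median depth was 13742 UMIs against 8695, and the part of depth in the choice of cells was not tested.

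Esm1 and Apln were among the genes highest in the cells with Itgb3, so a choice of cells by them restates that contrast at high burden and is given as a description. By a UMI of Esm1 or Apln, 81 of 162 high-burden cells and 179 of 509 low-burden cells qualified. Itgb3 stood at 38.9 CPM (28.0 to 52.6) in the 81 high-burden cells and at 4.10 CPM (0.846 to 12) in the other 81. In the low-burden library the values were 2.07 and 2.30 CPM, with overlapping intervals, so cells with Esm1 or Apln were present there too, without more Itgb3 than the rest. Thinned to 3000 UMIs, 7 of 81 high-burden cells with Esm1 or Apln had Itgb3 and 1 of 81 without, against 0 of 149 and 1 of 228 at low burden. Itga5, which pairs with Itgb1 to form the main fibronectin receptor, stood at 107 CPM in the cells with Itgb3 and at 38.4 CPM in those without, and Itgb5 at 30.2 and 69.6 CPM. Spp1 stood at 597 CPM in the cells with Itgb3 and at 964 CPM in those without, among them the cell that held 24% of the Spp1 of the class.

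**Figure D5:**
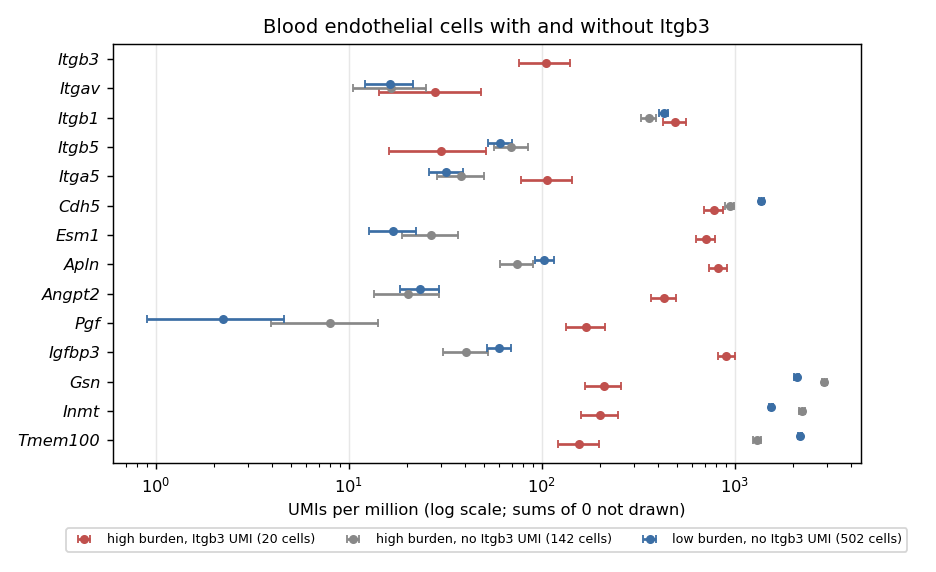
Levels of named genes in UMIs per 1000000 (log axis) in blood endothelial-like cells, for 20 high-burden cells with Itgb3 (red), 142 high-burden cells without (grey) and 502 low-burden cells without (blue), with 95% Poisson intervals. Esm1, Apln, Angpt2, Pgf and Igfbp3 lie to the right in the cells with Itgb3, and Gsn, Inmt and Tmem100 to the left.

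Both subunits of an integrin were then sought in the same cell, at 3000 UMIs per cell. How often a pair is missed at this depth was not measured, so the shares describe UMIs and not receptors. Itga4 with Itgb1 was found in 16 of 66 low-burden monocyte-like cells (24.2%, 14.5 to 36.4) and in 6 of 75 T-like cells (8.0%). Itga9 with Itgb1 was found in 6 of 18 lymphatic endothelial-like cells (33.3%, 13.3 to 59.0) and in 8 of 83 smooth muscle and pericyte-like cells (9.64%). In carcinoma-like cells, Itgav occurred with Itgb1 in 86 of 1339 (6.42%), with Itgb5 in 72 (5.38%) and with Itgb3 in 1 cell, while the Itga4 and Itga9 pairs were seen in 3 and 4 cells. In high-burden C1q macrophage-like cells, 63 of 755 (8.34%, 6.47 to 10.5) held any of the 5 pairs, among them 21 with Itgav and Itgb5. UMIs of both Itgav and Itgb3 were seen in 0 of these cells. By the limit of 3 counts this permits up to 0.397% of cells with such UMIs at this depth (exact upper bound 0.487%), and it sets no limit on cells that express the pair. Cd44 or any pair was present in 48.7% of carcinoma-like, 35.1% of high-burden C1q macrophage-like and 15.4% of high-burden blood endothelial-like cells.

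Across 26 class-by-library sums of 20 or more cells (16 low-burden and 10 high-burden), the genes whose log2(CPM + 10) followed that of Spp1 most closely were Foxm1 (Pearson r = 0.85), Ckap2l (0.82), Tuba1c (0.81), Mif (0.80), Birc5 (0.80), Hmga2 (0.80), Gapdh (0.80), Mrpl12 (0.80), Atp5g1 (0.79) and Tpx2 (0.79), of 9151 genes ranked. These sums share their library, so a gene that is high in all high-burden classes ranks high. Birc5 and Hmga2 also belong to the carcinoma gate, so their rank depends in part on how the class with most Spp1 was defined. Among carcinoma-like cells the order was the reverse. From the lowest to the highest Spp1 group, Birc5 went from 842 to 231 CPM, Hmga2 from 206 to 121 and the cell division gene Top2a from 438 to 233 CPM. Itga4 was followed by Pyhin1 (0.93), Arhgap15 (0.91) and Myo1g (0.91), Itgb1 by Morf4l1 (0.90), Pcnp (0.89) and Sept7 (0.85), and Itgb5 by Lrp1 (0.85), Fam20c (0.80) and Fn1 (0.80). Cd44 was followed by Unc119 (0.80), Ccl6 (0.80) and Itgax (0.79), and Itgav by Pdha1 (0.81), Mtx2 (0.81) and Samm50 (0.75). The nearest genes to Itgb3 (Cdipt, 0.77; Zfp821, 0.75; Wdr45, 0.73) and to Itga9 (Gng11, 0.77; Tbc1d12, 0.74; Tns1, 0.73) were less close.

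Other genes of the osteopontin pathway were counted in lists, first in carcinoma-like against the other named high-burden cells, where 13.3% of all genes were at least 2-fold higher and 20.8% lower. Of 4 other SIBLING glycoproteins, Dspp and Mepe had 0 UMIs in all kept cells, while Ibsp (bone sialoprotein) stood at 9.56 CPM in carcinoma-like against 0.658 CPM in the other named high-burden cells and Dmp1 at 1.82 against 0.293 CPM. Both passed the filter and were at least 2-fold higher. Of 15 other ligands of the same receptors, 3 were at least 2-fold higher in carcinoma-like cells and 7 lower. The higher ones were Edil3 (12.8 against 4.10 CPM), Mfge8 (255 against 96.4 CPM) and Cyr61 (473 against 194 CPM), and the lowest were Fbn1 (2.38 against 21.7 CPM), Vwf (3.27 against 27.8 CPM) and Vtn (0.493 against 2.78 CPM). The median log2 ratio of this list was -0.47, against 0.09 for all 12542 genes. Of the 4 other β subunits past the filter, Itgb4 was higher in carcinoma-like cells (69.0 against 9.36 CPM), and Itgb2 and Itgb7 were lower. Of 12 other α subunits, 1 (Itga10) was higher and 5 lower, led by the leukocyte subunits Itgam, Itgax and Itgal. Of 6 proteases that cleave osteopontin, Mmp3 (33.8 against 5.19 CPM) and Mmp10 (7.62 against 0.804 CPM) were higher and Mmp12, Plau and Mmp2 lower. The hyaluronan axis of Cd44 had 2 of 11 genes higher and 4 lower, and the integrin adaptors 4 of 15 higher and 2 lower.

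Between the libraries, fibronectin was higher at high burden in all 3 classes examined. Fn1 went from 282 to 670 CPM in C1q macrophage-like cells (log2 ratio 1.25), from 70.5 to 325 CPM in blood endothelial-like cells (2.20) and from 437 to 1788 CPM in fibroblast-like cells (2.03). In fibroblast-like cells Tnc (tenascin C) went from 10.1 to 133 CPM (3.72) and Postn (periostin) from 58.4 to 133 CPM (1.19), while Ctgf went from 723 to 155 CPM (-2.23). Itga5 was higher in fibroblast-like cells (11.7 to 87.9 CPM; 2.91). In C1q macrophage-like cells it had 1 UMI at low burden, and the interval of its ratio held 0 (2.04, -0.46 to 7.36). Of the other ligands past the filter, 3 of 10 were at least 2-fold higher and 2 lower in C1q macrophage-like cells, 3 of 12 higher and 0 lower in blood endothelial-like cells, and 4 of 12 higher and 1 lower in fibroblast-like cells. The shares of all genes that were at least 2-fold higher in these classes were 14.3%, 3.05% and 4.74%, and those at least 2-fold lower were 12.6%, 2.67% and 12.3%. All 3 proteases past the filter were lower in C1q macrophage-like cells, led by Mmp9 (291 to 1.18 CPM). All 13 integrin adaptors of C1q macrophage-like cells and all 14 of blood endothelial-like cells stayed within 2-fold, as did most genes of both classes by the shares above.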

How the data were processed

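Droplet-based single-cell RNA sequencing of dissociated whole lungs gave 1 low-burden and 1 high-burden library. The authors processed the reads with Cell Ranger 2.0.2 on mm10 with the PYMT sequence added, per the labels, and deposited raw UMI counts per gene and cell. Whether these precede the aggregation named in the methods, and the annotation release, are not given in the sources used here. Of 27999 gene identifiers, 27645 matched GENCODE M21, and 56 symbols occur more than once.

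Cells with 1000 to 7000 genes and at most 10% mitochondrial counts were kept. A gate compared a class's mean log1p marker level (counts scaled to 10000 per cell) with that of its 20 highest cells. It asked for 0.5 of that level and 3 detected markers. The gate rule was set after values had been seen. Members and lists were chosen with earlier results of these data known. Doublets were kept, because Scrublet marked 28 of 5789 cells (0.484%), too few to have worked. Counts were summed per class and library and scaled to CPM (per 1000000 UMIs). Each group is 1 library, so no test was run and no p-value is given. Poisson, conditional binomial (ratios) and Clopper-Pearson (shares) intervals were exact. A sum of 0 stood as 3 UMIs, as a bound. Ratios were given for classes of 20 or more cells per library, and genes were counted with 50 or more UMIs at a fold of 2. Shares used cells thinned to 3000 UMIs. In each list the 3 highest and 3 lowest genes could be named, with 10 genes most like Spp1 and 3 most like each receptor (500 or more UMIs). Genes named within carcinoma-like, macrophage-like and endothelial-like groups were chosen after their values were seen. The log2 ratio and its interval were tested on simulated counts, and the depth after thinning was checked on real cells. Python 3.11.15, numpy 2.4.6, scipy 1.17.1 and scanpy 1.11.5 were used.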

Additional observations from a re-analysis of the deposited data

Results flagged for a closer look

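Cd44 differed in direction between cell classes under the same contrast of high over low burden. It was higher in mesothelial-like cells (log2 ratio 1.59, 0.39 to 3.08, on 6 and 68 UMIs) and lower in monocyte-like cells (-0.77, -1.27 to -0.30, on 153 and 49 UMIs). Neither class is secure at high burden, as described above for Cd44. There the gate took 27 monocyte-like and 30 mesothelial-like cells, while Leiden clusters gave these names to 3 and 105 cells. Each interval covers counting error only, each class has 1 library per group, and the difference between the classes was not tested.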

How the results depend on the processing

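Over 62 results, 412 alternative values were computed, of which 376 stayed within the counting interval (or within 1.5 times, for counts of genes), 35 moved and 1 turned in direction. These alternatives include leaving out the Scrublet-marked cells, 28 of 5789. So few cells could move most values little, and this setting is no check on doublets. The Spp1 ratio of high over low burden lay between 3.36 and 5.79 on the log2 scale over 72 alternatives in 9 classes. Spp1 in carcinoma-like cells, at 7071 CPM, was 7037 without limits on cells, 7373 with Leiden clusters, 7101 without Scrublet-marked cells, 7221 and 6318 with gates at 0.4 and 0.6, 7828 as a mean of per-cell CPM and 6904 without its highest cell. In alveolar macrophage-like cells Spp1 was 1841 CPM with Leiden clusters and 2092 with the gate at 0.6, and Cd44 was 2018 CPM with Leiden clusters and 2243 as a mean of per-cell CPM. The Spp1 ratio of blood endothelial-like cells was 3.89 without Scrublet-marked cells and 3.80 with the gate at 0.6, and their Itgb3 ratio was 0.69 with Leiden clusters, through the change of class described above. The Itga9 ratio of fibroblast-like cells was -0.52 with Leiden clusters, and the cause was not tested. Without the limit of 50 UMIs, genes at least 2-fold lower in C1q macrophage-like cells numbered 2606 in place of 1097, and in blood endothelial-like cells 1269 were higher in place of 258 and 889 lower in place of 226, since more genes were counted. Thinned to 2000 UMIs, 6 of 10 shares of cells moved: Spp1 in high-burden C1q macrophage-like cells from 92.5% to 84.2%, Cd44 in alveolar macrophage-like cells from 98.0% to 94.2%, Itgav with Itgb1 and with Itgb5 in carcinoma-like cells from 6.42% to 3.29% and from 5.38% to 1.87%, and Itgav with Itgb5 and any pair in C1q macrophage-like cells from 2.78% to 1.59% and from 8.34% to 3.84%. The gates at 0.4 and 0.6 were chosen after seeing the data. No paired analysis was possible because each group holds 1 library. A gene with few UMIs, such as Itgb3, Itga4 or Itga9 in most classes, could not be compared at this depth.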
